A study of Mus musculus with 9 samples.

Results

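The Clec genes encode proteins with a C-type lectin-like fold, most of them receptors on the surface of myeloid cells. They were taken as every symbol in the gene table that starts with Clec, a number and a letter, which gave 33 of 53713 rows. Of these 33 genes, 28 had at least 1 unique molecular identifier (UMI, a tag that lets copies of 1 captured transcript be counted once) and 23 had at least 30. Together they held 58232 UMIs, or 2034 per 1000000 UMIs (counts per 1000000, CPM), and 54.7% of those UMIs belonged to Clec4f, Clec7a and Clec12a.

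The study profiled single liver cells and concerned the chaperone clusterin and the receptor LRP2, which takes it up, in liver scarring. Mice of the genotype labelled CluKO received recombinant human clusterin during injections of carbon tetrachloride (CCl4, a hepatotoxin), over a number of weeks not stated in the labels. The wild-type mice had 0, 2 or 4 weeks of CCl4, with 1 sample for each time. All were C57BL/6J mice aged 6 to 8 weeks. The 6 samples with the CluKO label share 1 matrix of 4694 cells in which no cell carries a sample name, so they count as 1 pooled sample. The 53713 rows of the matrix labelled CluKO have gene names, and every level below comes from it. The wild-type matrices held 20215, 7739 and 15133 cells at 0, 2 and 4 weeks, but their rows were not matched to genes, so Clec levels in wild-type livers were not analysed here. Differences between cell classes below are therefore differences within livers labelled CluKO, with no replicate and no test.

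After filtering, 4605 cells (each with its own barcode) with 28625132 UMIs remained, and 17 cell classes held at least 20 cells. Cells were sorted into classes by the number of marker genes with a UMI, and no Clec gene was among the markers. Median depth ran between 2946 UMIs per cell in neutrophils low in secondary granule transcripts and 10016 in granulocyte-monocyte progenitors, so some shares of cells with a UMI are also given with each cell thinned to 1000 UMIs. Shares of cells with UMIs of both genes of a pair were not thinned and move with depth. Clu itself, the gene named in the genotype, was counted at 480 CPM over all cells (95% Poisson interval 472 to 488) and at 2085 CPM in hepatocytes. The labels do not say which part of the gene was deleted, so these tags from transcript ends do not check the genotype. The 396 cells that passed the gates of more than 1 lineage were set aside. Intervals are exact at 95% and describe counting error alone. The spread among mice is unknown.

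C-type lectin receptors bind sugars, lipids or proteins of microbes and of dying or neighbouring cells. Dectin-type receptors and those that pair with the adaptors Fcer1g or Tyrobp signal through the kinase Syk and the adaptor Card9 to switch on inflammatory genes, whereas receptors with an inhibitory tail recruit the phosphatases Ptpn6, Ptpn11 and Inpp5d. In mouse liver, Clec4f is a known mark of Kupffer cells, the macrophages resident in the sinusoids, and Clec4g is a known mark of sinusoidal endothelium. A few genes carry the Clec symbol for their sequence alone, among them Clec16a, which takes part in autophagy, and the secreted proteins Clec3b and Clec11a.

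Of the 33 genes, 25 lie on chromosome 6 of GRCm38, as do 17 of the 23 with at least 30 UMIs. A pair of genes from each of 2 myeloid patterns is shown here. Clec4f (83644542 to 83656187, minus strand) and Clec1b (129397297 to 129409335, plus strand) were both highest in Kupffer cells. The neighbours Clec4d (123262111 to 123275265, plus strand) and Clec4e (123281789 to 123289870, minus strand) point towards each other and were both highest in neutrophils low in secondary granule transcripts, although for Clec4d the interval overlapped those of 2 other classes. The bases before the start of these 4 genes are shown 5′ to 3′ as RefSeq gives them for GRCm38.p6, leaving out bases that the GENCODE annotation puts inside the gene, because the macrophage and neutrophil results below turn on these genes. Capitals mark a match on either strand to AGGAAG (a core bound by ETS factors such as PU.1), the paired GAAA element (IRF factors), TGANTCA (AP-1) or TTGCNNAA (C/EBP factors). The windows are chr6:83656188-83656366 (minus) for Clec4f, chr6:129397047-129397296 (plus) for Clec1b, chr6:123261857-123262106 (plus) for Clec4d and chr6:123289872-123290121 (minus) for Clec4e.
Clec4f: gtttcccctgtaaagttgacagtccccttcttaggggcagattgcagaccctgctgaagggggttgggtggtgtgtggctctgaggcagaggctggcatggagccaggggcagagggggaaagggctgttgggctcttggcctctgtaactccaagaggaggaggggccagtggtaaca
Clec1b: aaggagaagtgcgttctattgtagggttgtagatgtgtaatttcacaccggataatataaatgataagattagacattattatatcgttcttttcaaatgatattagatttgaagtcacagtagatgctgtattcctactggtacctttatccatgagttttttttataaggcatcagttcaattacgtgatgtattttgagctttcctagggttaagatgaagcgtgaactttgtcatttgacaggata
Clec4d: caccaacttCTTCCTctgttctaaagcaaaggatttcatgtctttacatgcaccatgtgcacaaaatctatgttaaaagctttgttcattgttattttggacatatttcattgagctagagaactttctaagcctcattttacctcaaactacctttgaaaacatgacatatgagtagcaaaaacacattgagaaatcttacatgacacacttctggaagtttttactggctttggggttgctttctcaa
Clec4e: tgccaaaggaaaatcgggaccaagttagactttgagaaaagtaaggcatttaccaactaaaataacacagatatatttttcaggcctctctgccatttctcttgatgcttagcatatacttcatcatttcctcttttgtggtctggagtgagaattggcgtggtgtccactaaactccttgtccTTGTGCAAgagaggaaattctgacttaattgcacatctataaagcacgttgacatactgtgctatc

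The Clec4f and Clec1b windows held none of these letters, the Clec4d window held 1 match to AGGAAG read on the other strand and the Clec4e window held 1 match to TTGCNNAA, also on the other strand, so no matches overlapped. Neither the Clec4f nor the Clec4d window held a CG pair, whereas the Clec4e window held 3 and the Clec1b window 5. RefSeq windows were found for 19 of the 23 genes with at least 30 UMIs, taken as the 250 bases before each start. Of these 19 genes, 9 held AGGAAG, 2 the paired GAAA element, 2 TGANTCA, 4 TTGCNNAA, 0 CACGTG (the E-box) and 16 a CG pair. Among 32851 windows of the same length the shares were 29.5%, 2.98%, 6.75%, 9.56%, 6.02% and 92.1% in the same order. A match of letters is a description and does not show that a factor binds.

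**Figure D1:**
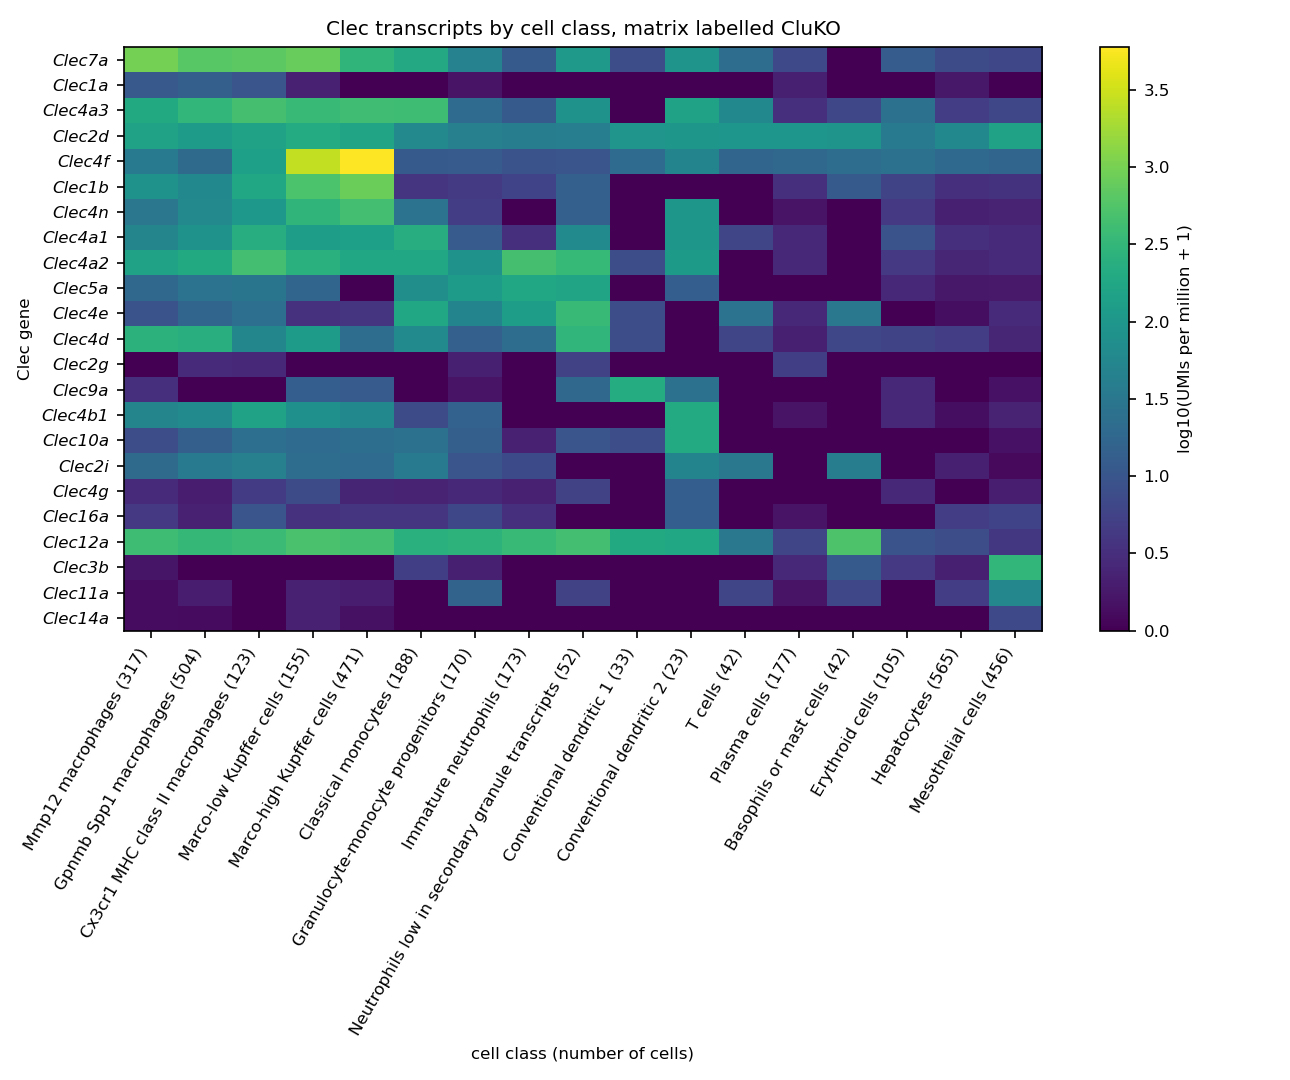
Level of each of the 23 Clec genes with at least 30 UMIs (rows) in the 17 cell classes of at least 20 cells (columns, with the number of cells), as colour on a log10(CPM + 1) scale. Clec4f is brightest in the Kupffer columns at 2680 and 5974 CPM, Clec12a spans the myeloid columns, and Clec3b stands out in mesothelial cells at 318 CPM.

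The 23 genes did not share 1 pattern, as the map of levels by class shows. Kupffer cells with high Marco had the highest level of 3 of them (Clec4f, Clec1b and Clec4n), and 3 each were highest in neutrophils low in secondary granule transcripts and in mesothelial cells. Another 5 were highest in conventional dendritic 2 cells, a class of 23 cells, and for Clec4g and Clec16a that maximum was 1 UMI, as it was for Clec2g in neutrophils low in secondary granule transcripts. The mesothelial maximum of Clec14a was 5.79 CPM, with an interval that overlapped those of 10 other classes. The 16 endothelial cells were too few to enter this ranking. Hepatocytes, T cells, plasma cells, erythroid cells and granulocyte-monocyte progenitors had the highest level of none. For 9 of the 23 the interval of the highest class overlapped that of no other class, namely Clec1b, Clec3b, Clec4e, Clec4f, Clec4n, Clec7a, Clec9a, Clec10a and Clec11a. The 10 remaining genes are accounted for by count. Clec2e, Clec2f, Clec2l, Clec4a4 and Clec4b2 had 4, 12, 6, 14 and 22 UMIs over all cells, and Clec2h, Clec2j, Clec3a, Clec12b and Clec18a had 0.

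Clec4f encodes a receptor for galactose-type sugars. It stood at 19.2 CPM in Gpnmb Spp1 macrophages (interval 14.8 to 24.6), 35.4 CPM in Mmp12 macrophages (29.1 to 42.6), 133 CPM in Cx3cr1 MHC class II macrophages (105 to 167) and 10.6 CPM in classical monocytes (4.58 to 20.9), against 2680 CPM in Marco-low Kupffer cells (2568 to 2795) and 5974 CPM in Marco-high Kupffer cells (5869 to 6080). Its UMI was seen in 100% of the 471 Marco-high Kupffer cells, or 99.2% when thinned. Cells that should lack the gene set its floor. In 784 plasma cells, T cells and hepatocytes (median depth 4053 UMIs, against 4141 in Kupffer cells) Clec4f was counted at 18.1 CPM (14.4 to 22.5) and in 9.31% of cells, which is 0.358% of its Kupffer level. The Kupffer markers stood at 0.230% (Vsig4), 0.341% (Cd5l) and 0.211% (Marco) of their Kupffer level in the same cells. The Clec4f level of Gpnmb Spp1 macrophages and of monocytes was thus at this background within counting error, while those of Mmp12 and Cx3cr1 MHC class II macrophages were above it. Gpnmb Spp1 macrophages still held Cd5l, a secreted macrophage protein gene, with 4859 UMIs beside 63 of Clec4f. The ratio of Clec4f to Cd5l was 0.0130, against 0.555 in Marco-low and 0.722 in Marco-high Kupffer cells. For Vsig4 the ratio was 0.0895, against 0.676 and 1.11. Both are among the 8 Kupffer gate markers, of which Gpnmb Spp1 macrophages by definition had fewer than 5. The 8 summed to 2931 CPM there, the lowest at 1.53 CPM, against 12730 CPM in Marco-low and 26480 CPM in Marco-high Kupffer cells.

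Clec1b encodes CLEC-2, the receptor for podoplanin, best known from platelets. It stood at 56.5 CPM in Gpnmb Spp1 macrophages (48.6 to 65.2), 82.9 CPM in Mmp12 macrophages, 175 CPM in Cx3cr1 MHC class II macrophages and 2.65 CPM in monocytes, against 514 CPM in Marco-low (465 to 566) and 838 CPM in Marco-high Kupffer cells (799 to 878). Unlike Clec4f, its level in all 3 other macrophage classes was far above the 2.21 CPM of the cells that should lack it (1.06 to 4.06). A UMI of both Clec4f and Clec1b was seen in 93.6% of Marco-high Kupffer cells. Of 6 platelet and megakaryocyte markers, 3 had a UMI in Marco-high Kupffer cells, for 154 CPM in sum of which Pf4 gave 151. In Mmp12 macrophages 4 of the 6 had a UMI, for 1165 CPM in sum of which 1 gene gave 1162. Endothelial markers summed to 275 CPM in Marco-low Kupffer cells, of which the highest gene gave 154. They summed to 968 CPM in Marco-high Kupffer cells, of which the highest gene gave 699. The part of platelet or endothelial transcripts in the Clec1b level was not tested. Pdpn, the gene of podoplanin, was counted at 444 CPM in mesothelial cells (423 to 466) and in 84.4% of them, while Mmp12 macrophages had 9.89 CPM, the next highest class. Clec4n, the gene of Dectin-2, a receptor for mannose-rich fungal sugars, was also highest in both Kupffer classes, with 59.8 CPM in Gpnmb Spp1, 30.6 CPM in Mmp12 and 103 CPM in Cx3cr1 MHC class II macrophages, against 294 CPM in Marco-low and 440.1 CPM in Marco-high Kupffer cells.

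**Figure D2:**
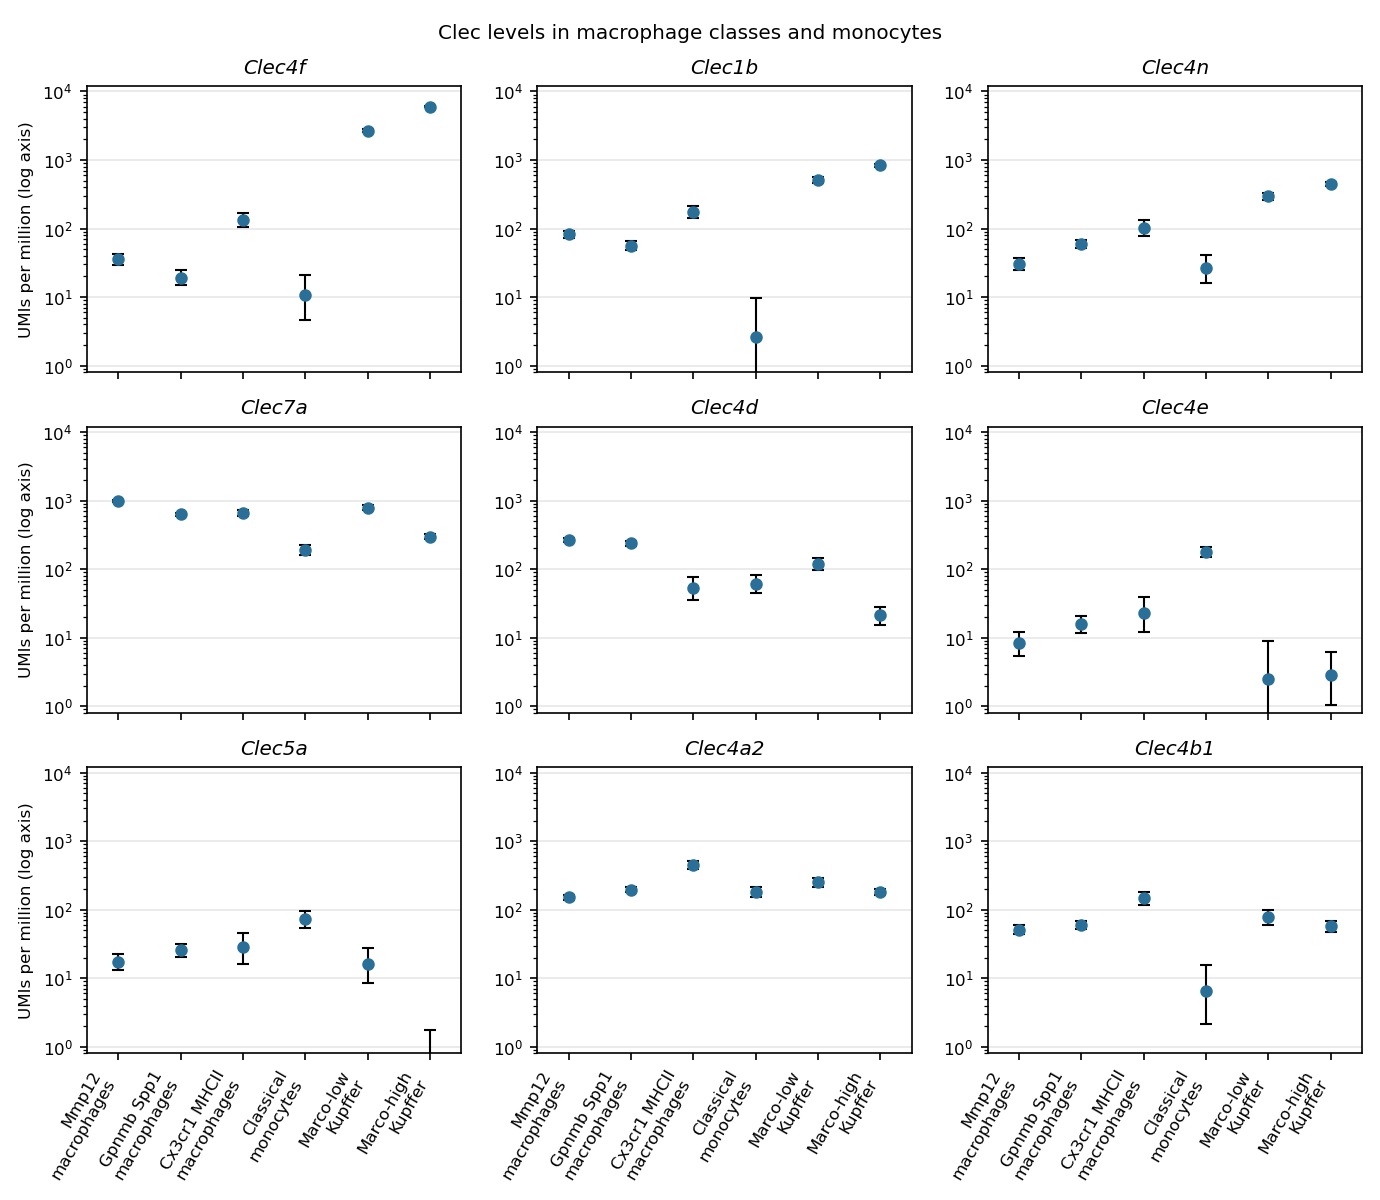
Levels of 9 Clec genes (CPM, log axis) in 3 other macrophage classes, classical monocytes and the 2 Kupffer classes; points are levels and bars exact 95% Poisson intervals, which are cut off below 0.8 CPM. Clec4f, Clec1b and Clec4n are highest in both Kupffer classes, Clec4d is highest in Mmp12 and Gpnmb Spp1 macrophages (267 and 238 CPM), Clec4e and Clec5a in monocytes, and Clec5a had 0 UMIs in Marco-high Kupffer cells, so no point is drawn there.

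Gpnmb Spp1 macrophages (504 cells) were set against Kupffer cells of both kinds (626 cells), 17 Clec genes having a summed count of at least 30. A gene was called when its CPM, with 5 CPM added to each side, differed at least 2-fold. Of the 17, 4 were called higher, where 3.02% of all 9489 genes were, and 4 were called lower, where 8.93% of all genes were. The 4 higher were Clec4d at 238 CPM, against 48.2 CPM in Kupffer cells (4.93-fold, 4.11 to 5.95), Clec4e at 15.9 CPM, against 2.77 CPM (5.73-fold), Clec5a at 26.0 CPM, against 4.51 CPM (5.76-fold), and Clec1a at 13.1 CPM, against 1 UMI in Kupffer cells (37.9-fold, 6.45 to 1531). With an offset of 20 CPM only Clec4d stayed called (log2 ratio 1.92), and Clec4e, Clec5a and Clec1a had log2 ratios of 0.66, 0.91 and 0.70. Clec4d (MCL) and Clec4e (Mincle) are receptors for mycobacterial glycolipid that signal through Fcer1g, Clec5a pairs with Tyrobp, and Clec1a binds fungal melanin. The 4 lower were Clec4f (263-fold, 205 to 342), Clec1b (13.2-fold, 11.4 to 15.5), Clec4n (6.67-fold, 5.73 to 7.80) and Clec9a. The Clec4f level of Gpnmb Spp1 macrophages was at background, so its fold is limited by that background. Clec7a, which encodes the beta-glucan receptor Dectin-1, was not called, at 631 CPM in Gpnmb Spp1 macrophages, against 436 CPM in Kupffer cells (1.45-fold, 1.35 to 1.55), and with classes from clusters its log2 ratio turned to -0.18. Clec4a2, which encodes the inhibitory receptor DCIR, had the same level on both sides within counting error (196 CPM, against 202 CPM, 0.973-fold, 0.869 to 1.09).

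Clec9a had 0 UMIs in Gpnmb Spp1 macrophages, against 33 in Kupffer cells (at least 12.5-fold lower, taking 3 UMIs for the group as the limit of a count of 0). Its gene starts at 129408862, before Clec1b ends at 129409335 on the same strand, and the Kupffer cells held 2157 UMIs of Clec1b. Of the 31-base words in the last 500 bases of Clec1b transcripts, 13.5% also occur in Clec9a transcripts. The Kupffer count of Clec9a, 11.4 CPM, is therefore uncertain.

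Marco-low Kupffer cells (155 cells) were also set against Marco-high ones (471 cells), a comparison added after the data were seen. Of 14 Clec genes with enough counts, 2 were called higher, with 2.52% of all 7964 genes, and 1 lower, with 5.25% of all genes. Clec7a stood at 791 CPM in Marco-low cells, against 299 CPM in Marco-high cells (2.65-fold, 2.37 to 2.96), and Clec4d at 118 CPM, against 21.1 CPM (5.59-fold, 3.87 to 8.18). Clec4f was the gene called lower (2.23-fold, 2.13 to 2.33), but its log2 ratio of -1.16 lay between -0.58 and -0.93 with stricter gates, with classes from clusters or without cycling cells, so that the call was lost in each. Clec12a, which encodes an inhibitory receptor, was at 485 CPM, against 439 CPM (1.11-fold, 0.980 to 1.25). The split was set at 3 Marco UMIs per cell, and 148 of the 626 Kupffer cells had 1 to 4 of them.

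Within the Kupffer gate, the Clec genes also differed by Gpnmb, which the gate did not use. The 626 cells were grouped as 413 with 0, 170 with 1 to 9 and 43 with 10 or more Gpnmb UMIs, whose median depths were 3768, 4366 and 8586 UMIs. In this order Clec4f stood at 5943, 5348 and 903 CPM (last interval 814 to 1000), Clec1b at 837, 804 and 279 CPM, and Clec4n at 454, 433 and 114 CPM. Clec7a, the gene of Dectin-1, ran the other way at 258, 464 and 1099 CPM, as did Clec4d at 14.4, 37.3 and 206 CPM, and Clec12a was level at 423, 493 and 487 CPM. The marker Vsig4 stood at 5429, 5514 and 2257 CPM, so the ratio of Clec4f to Vsig4 UMIs was 1.09, 0.970 and 0.400, and that of Clec1b to Vsig4 0.154, 0.146 and 0.123. Marco stood at 3047, 2635 and 153 CPM, a larger drop than that of Clec4f, and the Gpnmb groups thus overlap the split by Marco. The 43 cells were about as deep as Mmp12 macrophages (median 8985 UMIs), and the part of depth or of joined cells in these values was not tested.

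**Figure D3:**
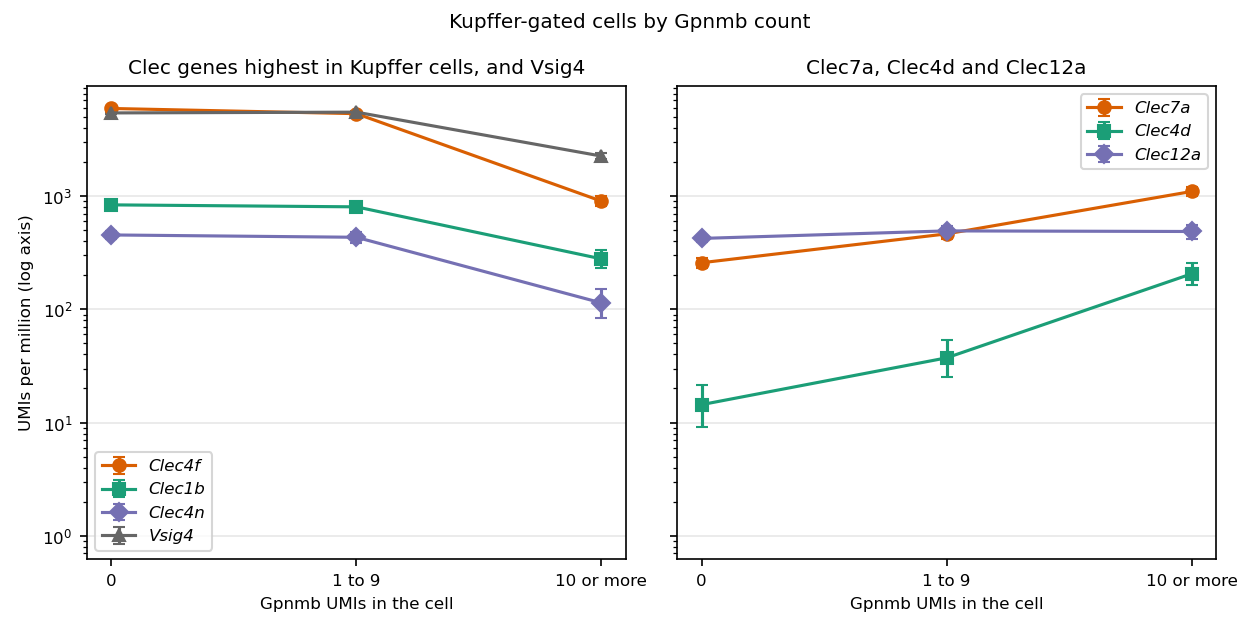
Levels (CPM, log axis) of Clec4f, Clec1b, Clec4n and the marker Vsig4 (left) and of Clec7a, Clec4d and Clec12a (right) in Kupffer cells with 0, 1 to 9, or 10 or more Gpnmb UMIs (413, 170 and 43 cells); bars are exact 95% Poisson intervals. Clec4f is at 903 CPM in the last group, Clec7a at 1099 CPM, and Clec12a stays between 423 and 493 CPM.

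Cx3cr1 MHC class II macrophages (123 cells) had 2 of 14 Clec genes called higher than in Kupffer cells, where 2.44% of all 8395 genes were called, and 4 called lower, where 10.5% of all genes were. Clec4a2 stood at 447 CPM, against 202 CPM in Kupffer cells (2.21-fold, 1.90 to 2.57), and Clec4b1, which encodes the activating receptor DCAR, at 147 CPM, against 63.1 CPM (2.33-fold, 1.78 to 3.04). Clec4b1 shares 27.3% and Clec4a2 14.0% of the 31-base words in their last 500 transcript bases with other genes, each of them with the other, so their counts may be split between them. Lower were Clec4f (38.0-fold), Clec1b (4.26-fold), Clec4n (3.88-fold) and Clec9a, which had 0 UMIs (at least 2.15-fold). Clec4a1 and Clec4a3, further genes of the DCIR group, were at 222 and 452 CPM, against 133 and 399 CPM in Kupffer cells, and were not called.

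Mmp12 macrophages (317 cells) had the highest Clec7a level of the 17 classes, 979 CPM (945 to 1014), and its UMI was found in 301 of 317 cells, or in 57.1% of cells when thinned. Against Gpnmb Spp1 macrophages, 0 of 16 Clec genes were called higher and 0 lower, where 0.763% and 0.392% of all 9177 genes were called. Clec7a stood at 979 CPM in Mmp12 macrophages, against 631 CPM in Gpnmb Spp1 macrophages (1.55-fold, 1.47 to 1.64), Clec4d at 267 CPM, against 238 CPM (1.12-fold, 1.02 to 1.24), and Clec4n at 30.6 CPM, against 59.8 CPM (1.96-fold lower, 1.52 to 2.52). Both Clec7a and Clec4d were seen in 67.5% of Mmp12 macrophages and 41.5% of Gpnmb Spp1 macrophages, at median depths of 8985 and 6020 UMIs, so no order is read from these shares. Clusters drew the border between these 2 classes elsewhere, and then 2 genes were called higher, Clec7a (log2 ratio 1.48) and Clec1b (1.37), and 2 lower, Clec4e (-2.44) and Clec4n (-1.10).

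Classical monocytes (188 cells) had low levels of the genes highest in Kupffer cells and held Clec4e and Clec5a transcripts. Their Clec4n level of 26.5 CPM was above the 0.883 CPM (0.241 to 2.26) of plasma cells, T cells and hepatocytes. Of 16 Clec genes, 2 were called higher than in Kupffer cells, with 9.56% of all 8649 genes, and 7 lower, with 17.0% of all genes. Clec4e stood at 179 CPM (150.1 to 212) in monocytes, against 2.77 CPM in Kupffer cells (64.6-fold, 31.8 to 153), and Clec5a at 72.9 CPM, against 4.51 CPM (16.2-fold, 8.73 to 32.3). The lower genes were Clec4f (477-fold), Clec1b (282-fold), Clec4n (15.1-fold), Clec4b1 (9.51-fold), Clec2d (2.87-fold), Clec7a at 189.6 CPM, against 436 CPM (2.30-fold), and Clec9a, which had 0 UMIs (at least 2.87-fold). In monocytes Clec4f and Clec1b were, within counting error, at their background in plasma cells, T cells and hepatocytes (18.1 and 2.21 CPM). Their folds are limited by that background. Clec4a3 was at 403 CPM, against 399 CPM (1.01-fold, 0.888 to 1.15), and Clec4a1 at 227 CPM, against 133 CPM (1.70-fold). Cycling monocytes (74 cells) differed from the other 114, with Clec4a3 at 181 CPM, against 618 CPM, and Clec5a at 99.9 CPM, against 46.9 CPM. Of 8 neutrophil markers 7 had a UMI in monocytes, for 1503 CPM in sum, as had all 6 progenitor markers, for 854 CPM in sum. Their part in the Clec4e and Clec5a levels was not tested.

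The neutrophil classes differed in which Clec genes they held. Clec4d stood at 13.4 CPM in granulocyte-monocyte progenitors, 21.5 CPM in immature neutrophils and 306 CPM in neutrophils low in secondary granule transcripts, and Clec4e at 49.2, 131 and 365 CPM in the same order. Clec5a was already at 116 CPM in progenitors, with 184 and 158 CPM in the 2 neutrophil classes. Of 7 Clec genes compared, 3 were called higher in the 52 neutrophils low in secondary granule transcripts than in the 173 immature neutrophils, where 20.6% of all 3355 genes were called, and 0 were called lower, with 4.86% of all genes. These were Clec4d (14.3-fold, 8.38 to 25.5), Clec7a at 104 CPM, against 10.7 CPM (9.64-fold, 4.30 to 23.7), and Clec4e (2.78-fold, 2.06 to 3.74). Clec12a was at 437 CPM, against 355 CPM (1.23-fold, 0.967 to 1.55), Clec4a2 at 342 CPM, against 465 CPM (0.735-fold, 0.567 to 0.942), and Clec2d at 40.5 CPM, against 39.4 CPM. A UMI of both Clec4d and Clec4e was found in 46.2% of neutrophils low in secondary granule transcripts (median depth 2946 UMIs) and 6.94% of immature neutrophils (3848 UMIs), and in at most 7.98% of the cells of every other class of at least 20 cells. Immature neutrophils in cycle (45 cells) had Clec4e at 35.4 CPM, against 206 CPM in the other 128. The 8 macrophage markers summed to 9498 CPM in neutrophils low in secondary granule transcripts, of which the highest gene gave 8656 CPM, and to 19639 CPM in immature neutrophils, of which the highest gave 19461 CPM. Their part in the Clec7a level was not tested.

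**Figure D4:**
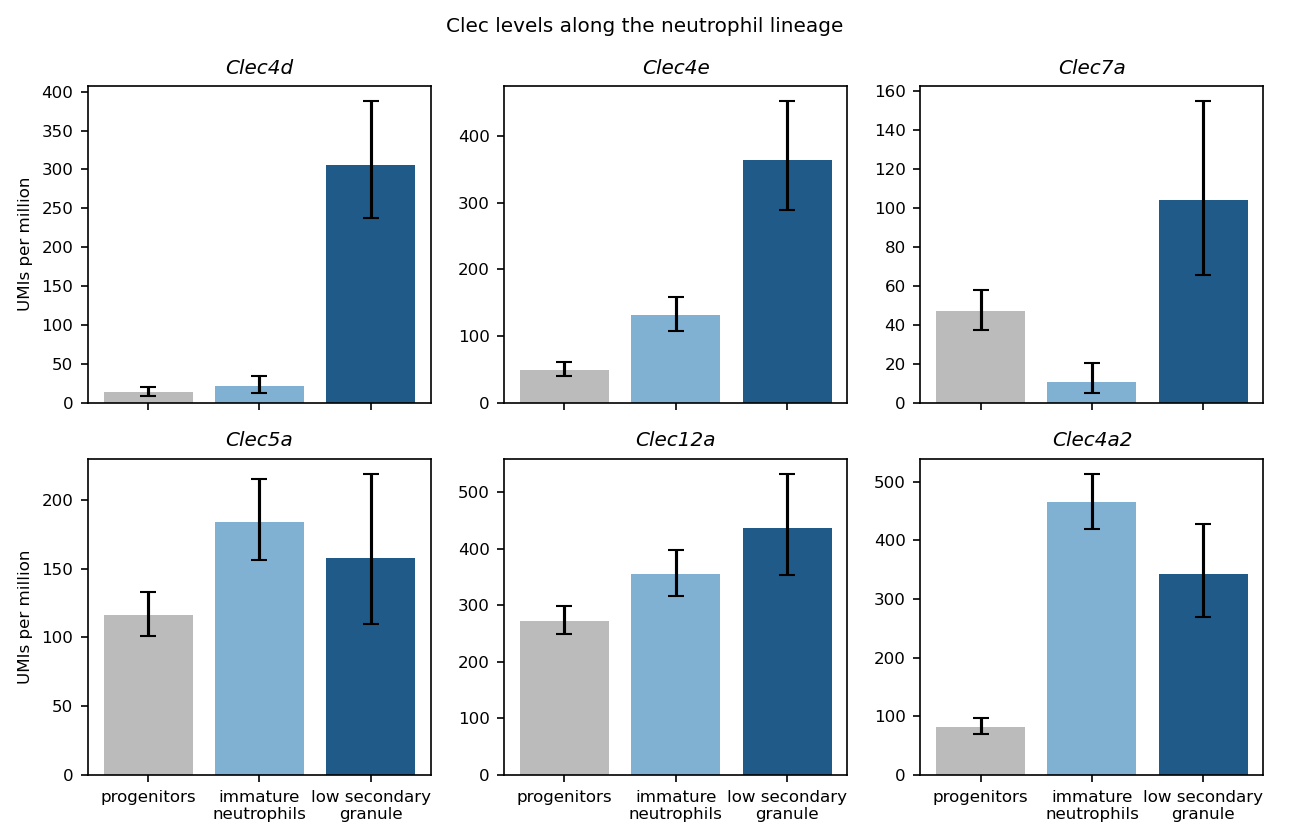
Levels (CPM) of 6 Clec genes in granulocyte-monocyte progenitors (170 cells), immature neutrophils (173 cells) and neutrophils low in secondary granule transcripts (52 cells); bars are levels and whiskers exact 95% Poisson intervals. Clec4d, Clec4e and Clec7a are highest in the last class at 306, 365 and 104 CPM, while the intervals of Clec5a overlap between the last 2 classes.

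The DCIR group, whose genes lie together on chromosome 6, split between the myeloid classes. Clec4a2 stood at 465 CPM in immature neutrophils (420.2 to 514), 342 CPM in neutrophils low in secondary granule transcripts, 447 CPM in Cx3cr1 MHC class II macrophages and 184 CPM in monocytes, and the interval of its highest class overlapped those of 2 others. Clec4a1 stood at 63.0 CPM in neutrophils low in secondary granule transcripts (14 UMIs), against 2.39 CPM in immature neutrophils, and Clec4a3 at 85.5 CPM (19 UMIs), against 10.7 CPM. Clec4a3 instead stood at 452 CPM in Cx3cr1 MHC class II macrophages, 414 CPM in Marco-high Kupffer cells, 403 CPM in monocytes, 320.3 CPM in Gpnmb Spp1 and 199 CPM in Mmp12 macrophages. Clec4a1 was at 227 CPM in monocytes, 222 CPM in Cx3cr1 MHC class II, 84.0 CPM in Gpnmb Spp1 and 50.7 CPM in Mmp12 macrophages. Immature neutrophils thus held Clec4a2 with little Clec4a1 or Clec4a3, whereas the macrophage classes, the monocytes and the other neutrophils held all 3.

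Dendritic cells were few, at 33 conventional dendritic 1 and 23 conventional dendritic 2 cells. Clec9a, which encodes a receptor for actin filaments exposed by dead cells, stood at 214 CPM in conventional dendritic 1 cells (146 to 302), against 25.1 CPM in conventional dendritic 2 cells, where 2 UMIs were counted (8.52-fold, 2.17 to 73.4). It was the 1 gene called higher of the 2 Clec genes with enough counts, where 10.9% of all 1138 genes were called, and 0 were called lower, with 6.77% of all genes. The other, Clec12a, stood at 194 CPM, against 176 CPM. Clec10a, a receptor for galactose-type sugars, had 1 UMI in conventional dendritic 1 cells, against 16 in conventional dendritic 2 cells (6.68 and 201 CPM), and Clec4b1 had 0 UMIs, against 16. Clec10a shares 21.8% of the 31-base words in its last 500 transcript bases with its paralog Mgl2, itself highest in conventional dendritic 2 cells at 301 CPM.

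Other cell classes held single Clec genes. Mesothelial cells (456 cells) had Clec3b, the gene of the plasminogen-binding protein tetranectin, at 318 CPM (300.1 to 336), with 98.6% of its UMIs in the 17 classes, and the growth factor gene Clec11a at 54.2 CPM (47.1 to 62.2), against 1.33 and 2.65 CPM in plasma cells, T cells and hepatocytes. A UMI of Clec3b was found in 59.2% of them, or 23.7% when thinned, and of both genes in 18.4%. Clec11a was next highest in granulocyte-monocyte progenitors at 15.1 CPM, with mesothelial cells 3.59-fold higher (2.40 to 5.59). Of 7 stellate or fibroblast markers 5 had a UMI in mesothelial cells, for 8491 CPM in sum of which 1 gene gave 6180 CPM, and their part in the Clec3b and Clec11a levels was not tested. Basophils or mast cells (42 cells) had the highest Clec12a level, 521 CPM (423 to 635), with 5 other classes whose intervals overlapped it. Clec2d, whose protein is a ligand of the natural killer receptor family Klrb1, was at 73.8 CPM even in plasma cells, T cells and hepatocytes and reached 207 CPM in Marco-low Kupffer cells. Classes under 20 cells are given as counts. The 16 endothelial cells held 265 UMIs of Clec4g (5318 CPM), 30 of Clec14a and 10 of Clec1b, and the 7 megakaryocytes or platelets held 27 UMIs of Clec1b (446 CPM). Clec2g, Clec2i and Clec16a stayed below 51 CPM in all 17 classes, at most 4.50, 50.2 and 12.5 CPM.

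The adaptor genes Tyrobp and Fcer1g were counted in every myeloid class of at least 20 cells. Card9 had 0 UMIs in both classes of conventional dendritic cells. Its upper limits there were 24.6 CPM (conventional dendritic 1) and 46.3 CPM (conventional dendritic 2). Both limits lie above its 9.36 CPM in Kupffer cells, so the counts of 0 do not show absence. Tyrobp stood at 4346 CPM in Gpnmb Spp1 macrophages and 3149 CPM in Marco-high Kupffer cells, and Fcer1g at 2942 and 2206 CPM. In conventional dendritic 1 cells Fcer1g was at 127 CPM, against 2232 CPM in conventional dendritic 2 cells. Of 16 adaptors and kinases compared between Gpnmb Spp1 macrophages and Kupffer cells, 0 were called higher and 3 lower, among them Fyn (7.40-fold) and Lyn (2.62-fold), with a median log2 ratio of -0.39 beside -0.16 over all genes, of which 3.02% were called higher and 8.93% lower. In monocytes 2 of the 16 were called higher than in Kupffer cells, Card9 (41.1 CPM, against 9.36 CPM) and Malt1 (26.5 CPM, against 9.36 CPM), and 2 lower, with a median of 0.04 beside -0.07. Over all genes 9.56% were higher and 17.0% lower in that comparison, so counts this small do not set the list apart. Of the 3 phosphatases bound by inhibitory tails, Ptpn6 was called lower in Gpnmb Spp1 macrophages at 205 CPM, against 419.7 CPM in Kupffer cells (2.05-fold). Of 16 target genes of Card9 signalling, 7 could be compared between these classes, with 0 higher and 2 lower, Nlrp3 (6.51-fold) and Il1b (3.82-fold), and a median of 0.28, beside 3.02% and 8.93% of all genes. In neutrophils low in secondary granule transcripts, Cxcl2 stood at 900.3 CPM, against 58.4 CPM in immature neutrophils, the 1 called higher of 2 such targets compared, where 20.6% of all genes were called higher.

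C-type lectins named otherwise also differed between the classes. Of 30 listed, 9 could be compared between Gpnmb Spp1 macrophages and Kupffer cells, with 1 higher and 6 lower and a median log2 ratio of -1.33 beside -0.16 over all genes, of which 3.02% were higher and 8.93% lower. The mannose receptor gene Mrc1 stood at 187 CPM in Gpnmb Spp1 macrophages, against 1011 CPM in Kupffer cells, Cd207 (langerin) at 26.9 CPM, against 243 CPM, and the scavenger lectin gene Colec12 at 16.2 CPM, against 199 CPM. Cd93, the 1 called higher, stood at 323 CPM, against 35.7 CPM (9.06-fold, 7.39 to 11.2). The inhibitory Fc receptor gene Fcgr2b, from the list of ligands and partners, was at 175 CPM, against 15.6 CPM (11.2-fold), the 1 called of 4 compared, with a median of -0.37. In monocytes 2 of the 9 other lectins were called higher than in Kupffer cells and 6 lower, with a median of -3.25 beside -0.07, where 9.56% of all genes were higher and 17.0% lower.

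For each Clec gene with at least 300 UMIs, the genes outside the family with the most similar levels over the 17 classes were found by Pearson correlation of log2(CPM + 10) among 8035 genes. Clec4f was most like Chp2, Kcna2 and Ccdc148 (r = 0.977, 0.968 and 0.963), Clec1b like Spic, Mmp27 and Lilra5 (0.973, 0.965 and 0.963), and Clec7a like Gngt2, Slc43a2 and Slc15a3 (0.973, 0.953 and 0.944). Clec12a was most like the adaptor gene Tyrobp (0.966), Clec4d like Ptafr (0.879), Clec4e like Pi16 (0.937), Clec5a like Trem3 (0.914), Clec4n like Wfdc17 (0.939), Clec4a2 like Cybb (0.957) and Clec3b like Rpp25 (0.994). The 17 points are classes of 1 library, and for genes held by 1 class, such as Clec3b, r rests on that class. Within the family the closest pairs were Clec4a1 with Clec4a3 (0.959), Clec7a with Clec4a3 (0.926), Clec3b with Clec14a (0.922) and Clec4f with Clec1b (0.881). Clec4e was closer to Clec5a (0.808) than to its neighbour Clec4d. Clec14a had 73 UMIs, fewer than 300, and at most 5.79 CPM in the 17 classes, less than the 10 CPM added. Its r with Clec3b is therefore uncertain.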

How the data were processed

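Per the labels' protocols, dissociated liver cells were barcoded with Singleron GEXSCOPE kits, which capture poly-A RNA. The authors deposited 4 sparse matrices of raw UMI counts, and only the matrix labelled CluKO could be joined to a gene table. The submitters' processing notes name the build GRCm38, and no aligner is given in the sources used here.

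A cell needed 200 detected genes and no more than 20% mitochondrial UMIs, which 4616 of 4694 met. Scrublet, run through scanpy 1.11.5, marked 11 (0.238%) as doublets, and these were removed. Classes were gated on marker UMIs without Clec genes: at least 5 of 8 Kupffer markers, split at 3 Marco UMIs; at least 10 Mmp12 UMIs; at least 10 Gpnmb UMIs with Spp1; Cx3cr1 with at least 3 MHC class II genes; and neutrophils split at 5% secondary granule UMIs. Clusters drawn without Clec genes (25 clusters, leidenalg 0.10.2) served as an alternative. Near the limits lay 12 of 225 neutrophils, 57 of 317 Mmp12 macrophages and 45 of 626 Kupffer cells.

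Counts were summed per class and scaled to 1000000 (Python 3.11.15, numpy 2.4.6, scipy 1.17.1, pandas 2.3.3). Levels carry exact Poisson, shares Clopper-Pearson and ratios conditional binomial intervals at 95%, and a count of 0 was bounded by 3 counts. A gene with 30 or more UMIs over both classes was called at a 2-fold difference with 5 CPM added. With 1 pooled sample there is no test. Intervals cover counting error only. All 33 Clec genes are accounted for, those with at least 30 UMIs by their levels in the classes and the others by count, and lists of signalling and partner genes were read the same way. Each Clec gene with at least 300 UMIs was set beside the 3 genes of most similar level, and 31-base words in the last 500 transcript bases were compared between genes. Gene positions are those of GENCODE for GRCm38 and promoters those of RefSeq for GRCm38.p6.

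The members and lists were chosen with earlier results of these data known. Alternatives were a stricter cell filter, stricter gates, clusters, no doublet removal, another scaling, offsets of 1 and 20 CPM, a count of at least 10, thinning to 1000 UMIs and leaving out cycling cells. Comparisons with wild-type livers were not made. The class ratios were also run on simulated data, but no result of that run is given here, so it does not bear on the values above. 1 gene of the signalling list is not reported here by name.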

Additional observations from a re-analysis of the deposited data

How the results depend on the processing

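Of 765 recomputed log2 ratios over 86 named ratios, 698 were marked as the same within the spread that counting error allows and 67 as moved. Of the 67, 36 moved with classes from clusters, where 41 stayed, 17 with stricter gates and 14 without cycling cells. A lower count minimum cannot change a ratio, so its 86 were fixed in advance. All 86 were also marked the same with an offset of 20 CPM, although calls were lost there. The total of 698 is therefore no measure of how stable the ratios are. No called ratio changed sign, while the uncalled Clec4f ratio of Mmp12 over Gpnmb Spp1 macrophages was 0.74 as reported and -0.57 with clusters. Genes called higher in Gpnmb Spp1 macrophages than in Kupffer cells numbered 1 with an offset of 20 CPM, against 4 as reported. Genes called higher in Cx3cr1 MHC class II macrophages numbered 6 with clusters and 4 at a summed count of at least 10, against 2. Between Mmp12 and Gpnmb Spp1 macrophages, clusters gave 2 higher and 2 lower, and leaving out cycling cells gave 1 lower, against 0 and 0. At a summed count of at least 10, 5 genes were higher in neutrophils low in secondary granule transcripts, against 3, and 4 were lower in conventional dendritic 1 cells, against 0. Without cycling cells 0 genes were higher in conventional dendritic 1 cells, against 1. In Marco-low Kupffer cells 0 genes were lower with stricter gates, with clusters and without cycling cells, against 1. With clusters, 13 of 23 genes were highest in the same class, and with cells thinned to 1000 UMIs 13 of 23 had their highest share in the same class. The cause of these moves was not tested, apart from the count minimum, which tests more genes. The median over all genes shifted by -0.14 with stricter gates and -0.16 without cycling cells in the neutrophil comparison, and by -0.12 without cycling cells in the dendritic one. Clusters gave no value for those 2 comparisons, although conventional dendritic 1 cells still formed a class there, in which Clec10a was highest. All 3 genes highest in neutrophils low in secondary granule transcripts and all 5 highest in conventional dendritic 2 cells changed their highest class with clusters. For these genes the count of 13 of 23 therefore does not show that a level moved. No paired analysis was possible because the 6 samples are pooled in 1 matrix, and for the same reason no replicate could be left out. The dendritic and neutrophil comparisons rest on classes as small as 23 and 52 cells.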

Other observations

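Cells that passed both the macrophage and the neutrophil gate (104 cells, median 6738.5 UMIs) were set aside above. They held Clec4d at 249.5 CPM (216 to 287), Clec4e at 144 CPM (119 to 173), Clec7a at 640.2 CPM (586 to 698) and Clec4f at 127 CPM (104 to 155). Clec4e was thus between its 365 CPM in neutrophils low in secondary granule transcripts and its 15.9 CPM in Gpnmb Spp1 macrophages, while Clec7a was near the 631 CPM of those macrophages and Clec4f above the 19.2 CPM there. Whether these are joined cells was not tested.

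Cycling cells differed in a few further Clec genes. In Gpnmb Spp1 macrophages Clec5a stood at 47.6 CPM in cycling cells, against 20.8 CPM in the others. In Mmp12 macrophages Clec2i was at 36.1 CPM in cycling cells, a level above that of the others, and Clec4f at 13.3 CPM, against 46.6 CPM. In granulocyte-monocyte progenitors Clec2d was at 34.8 CPM in cycling cells, against 100.3 CPM. These splits are values without a replicate.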
